A study of Mus musculus with 18 samples.

Results

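The genes described here are 36 named genes of the lysosome and of autophagy, chosen by name and matched by gene symbol. All 36 were found among the 24091 symbols of the table for epididymal white fat (eWAT, the fat pad attached to the epididymis) and among the 51826 identifiers of the table for inguinal white fat (iWAT, a subcutaneous pad). All 36 also passed the filters on low values, as members of 15141 genes tested in eWAT and 16387 in iWAT. The data are RNA sequencing of 18 libraries in 6 groups of 3, from C57BL/6 mice. Control mice were kept for 24 weeks in 12 h of light and 12 h of darkness. Shiftwork mice followed that cycle on 4 days of every week and its reverse on the other 3, also for 24 weeks. eWAT was collected from both schedules at ZT3 and at ZT12, that is 3 and 12 h after lights-on of the regular cycle, and iWAT from both schedules at ZT3. The animals' age, and the day of the rotation on which shiftwork tissue was taken, are not given in the sources used here. Replicates are numbered in the labels but not described as separate animals, so the p-values measure the spread between these libraries. Some sample numbers in the deposited headers recur between eWAT at ZT12 and iWAT at ZT3. Whether libraries with the same number share an animal is not given.

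Lysosomes are acidic compartments in which cathepsins cut proteins, glycosidases trim sugars from glycoproteins and glycolipids, and lysosomal acid lipase releases fatty acids and cholesterol from lipids taken up or engulfed by the cell. A proton pump, the V-ATPase, keeps them acidic, and autophagy delivers the cell's own material to them. TFEB, TFE3 and MITF, the MiT/TFE transcription factors, bind a short palindrome in the promoters of many lysosomal genes, known as the CLEAR element. In white fat, macrophages that take up lipid are known for large numbers of lysosomes, and adipocytes use autophagy too. The 36 genes fall into 7 roles: 3 MiT/TFE factors, 5 membrane proteins, 9 cathepsins, 6 glycosidases, 3 lipid-handling proteins, 5 V-ATPase subunits and 5 autophagy genes.

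The palindrome is shown because it is known from the promoters of many lysosomal genes. RefSeq promoter windows of GRCm38.p6, from 250 bases before to 50 bases after the gene's start, were at hand for 29 of the 36 genes. The start meant in this paragraph is the one on which the RefSeq window is placed. It can differ from the gene positions given further below, as it does for Ctsa. The octamer TCACGTGA, searched on both strands and identical on both, was present in the windows of 6 of the 29 genes (20.7%) and of 304 of all 27025 genes with a window (1.12%). The shorter E-box CACGTG, which lies inside the octamer and is also bound by other factors such as those of the circadian clock, was present in 10 of the 29 (34.5%) and in 2187 of the 27025 (8.09%). The 6 genes with the octamer were Ctsa and Ctsd (cathepsins), Mcoln1 (a lysosomal calcium channel), Atp6v0d1 and Atp6v1a (proton pump subunits) and Gla (alpha-galactosidase). A stretch of 30 bases around the octamer, read 5′ to 3′ on the gene's strand with the octamer in capitals, is given for each.
Ctsa, chr2:164833749-164833778, plus strand: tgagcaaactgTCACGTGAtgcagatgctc
Ctsd, chr7:142387908-142387937, minus strand: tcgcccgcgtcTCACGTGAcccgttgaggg
Mcoln1, chr8:3500462-3500491, plus strand: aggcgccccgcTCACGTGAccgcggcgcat
Atp6v0d1, chr8:105566050-105566079, minus strand: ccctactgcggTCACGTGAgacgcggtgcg
Atp6v1a, chr16:44139373-44139402, minus strand: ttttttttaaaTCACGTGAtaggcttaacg
Gla, chrX:134601182-134601211, minus strand: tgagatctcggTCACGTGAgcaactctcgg
Ctsa and Gla each held a further copy, which for Ctsa began 4 bases after the gene's start: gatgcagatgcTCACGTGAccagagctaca. A match is a description of the letters in this window, not of binding.

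Assigned reads ran from 20352008 to 72276733 per eWAT library and from 28544338 to 55639501 per iWAT library. Levels are given as CPM, reads of a gene relative to the scaled size of its library, and 3 reads correspond to 0.0375 to 0.146 CPM in eWAT, counting error only. All 8 adipocyte markers were detected in every library, and their summed level was 9729 to 27976 CPM in the eWAT libraries and 12068 to 30038 CPM in the iWAT libraries. Several libraries stood apart. Transcripts of vas deferens and epididymis summed to 11758 and 12314 CPM in ZT3 control replicates 1 and 3 and to 701 CPM in ZT3 shiftwork replicate 3, against 2.48 to 17.6 CPM in the other 9 eWAT libraries. Smooth muscle transcripts summed to 8517 and 6039.8 CPM in ZT3 control replicates 1 and 3, against 249.8 to 724 CPM in the other eWAT libraries. Spermatid transcripts reached 2875 CPM in ZT3 shiftwork replicate 3, and intestinal transcripts 530.3 CPM in ZT12 shiftwork replicate 2. B cell transcripts summed to 61.9, 74.5 and 244 CPM in the ZT3 controls of eWAT and to 12.6 to 38.3 CPM in its other 9 libraries. In iWAT, B cell transcripts summed to 729 and 1153 CPM in control replicates 1 and 2 against 3.69 to 35.7 CPM in the other 4, and skeletal muscle transcripts to 47352 CPM in shiftwork replicate 1 against 41.2 to 634 CPM elsewhere.

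Per transcript length, the most abundant members in eWAT were Ctsd, the aspartic protease cathepsin D (median 803 FPKM over 12 libraries), Psap, the precursor of the saposins that present lipids to hydrolases (488 FPKM), Ctsb, the cysteine protease cathepsin B (358 FPKM), and Lamp1, a main glycoprotein of the lysosomal membrane (276 FPKM). The same 4 genes led in iWAT, in the order Psap (881 RPKM), Ctsb (583 RPKM), Ctsd (442 RPKM) and Lamp1 (303 RPKM). The lowest 4 in eWAT were Tfeb (3.93 FPKM), Atp6v0d2 (3.67 FPKM), Gla (3.63 FPKM) and Mitf (2.54 FPKM). Ranges overlapped between neighbours in these orders, for example 2.09 to 2.82 for Glb1 and 2.19 to 3.07 for Npc1 in log2 FPKM. Becn1, the autophagy initiator Beclin 1, was the steadiest member over the 12 eWAT libraries, with a highest CPM 1.15 times the lowest. Atp6v0d2, a proton pump subunit of macrophages and osteoclasts, was the most variable at 47.1 times.

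In control eWAT, lysosomal genes were higher at ZT12 than at ZT3. Of the 36 genes, 33 were higher and 3 lower. In edgeR's quasi-likelihood test, adjusted over all genes, 9 rose and 0 fell, where 2.93% of all genes tested rose and 0.766% fell (21 members at an unadjusted p under 0.05, all higher). The median log2 difference was 0.54 over the members and -0.012 over all genes. The 9 were the transcription factor Tfeb, the membrane protein Laptm5, the cathepsins Ctsa, Ctsk and Ctsz, the glycosidases Neu1, Hexa and Glb1, and the lipase Lipa. Of these 9, which all had a promoter window, 2 held the E-box (Ctsa and Glb1) and 1 the octamer (Ctsa), against 8 and 5 of the other 20 members with a window. In bulk tissue, more cells of a type and more RNA per cell cannot be told apart. ZT3 control replicates 1 and 3 held male tract transcripts (11758 and 12314 CPM), against 7.18 to 8.61 CPM in the ZT12 controls. Tissue content and time therefore cannot be told apart in these 2 libraries. Replicate 2, without such transcripts at that level, was the highest ZT3 control for 22 of the 36 genes.

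**Figure D1:**
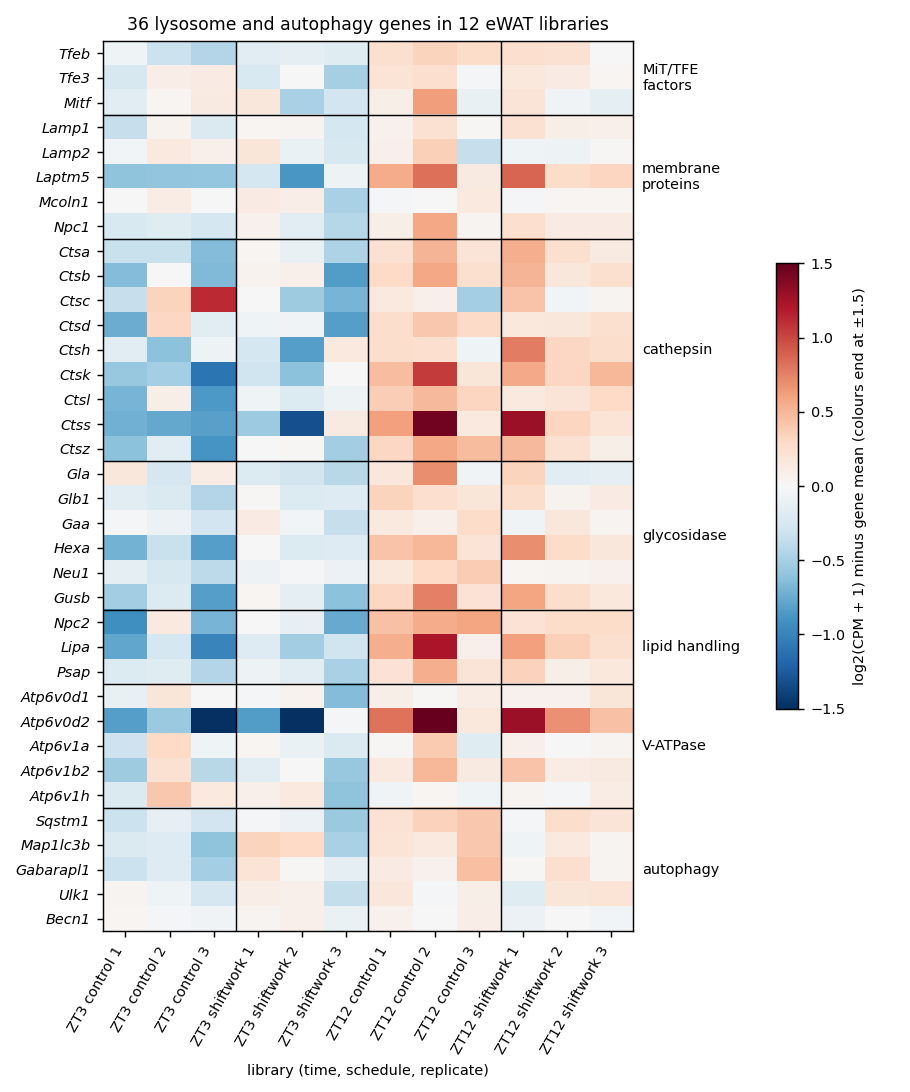
Heat map of log2(CPM + 1) minus the gene's mean over the 12 eWAT libraries, for the 36 genes in rows by role and the libraries in columns by time, schedule and replicate; red is above the gene's mean and blue below. The 6 ZT12 columns are mostly red and the 6 ZT3 columns mostly blue among cathepsins, glycosidases and lipid-handling genes, while Becn1, Mcoln1 and Lamp2 are pale.

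Of the MiT/TFE factors, Tfeb (chr17:47737037-47792416), a main activator of lysosomal genes, measured 15.1, 12.5 and 11.4 CPM in the ZT3 controls, 14.1, 14.3 and 13.8 at ZT3 under shiftwork, 18.8, 20.2 and 19.3 in the ZT12 controls and 19.0, 18.7 and 15.7 at ZT12 under shiftwork. Every ZT12 library was above every ZT3 library, and Tfeb rose in controls by 0.58 ± 0.13 on the log2 scale (SE; edgeR adjusted p = 0.0427). Its paralog Tfe3 measured 57.2, 72.2 and 73.4 CPM in the ZT3 controls, 57.5, 67.6 and 47.6 at ZT3 under shiftwork, 77.7, 80.4 and 66.6 in the ZT12 controls and 75.6, 73.6 and 68.9 at ZT12 under shiftwork. The control groups of Tfe3 overlapped (difference 0.15 ± 0.15), and those under shiftwork did not. Mitf, the factor named for its role in pigment cells, measured 19.1, 22.1 and 23.9 CPM in the ZT3 controls, 24.4, 15.2 and 17.5 at ZT3 under shiftwork, 23.1, 33.7 and 19.9 in the ZT12 controls and 24.7, 20.7 and 19.4 at ZT12 under shiftwork. It overlapped in both schedules, with ZT12 control replicate 2 highest and a control difference of 0.24 ± 0.23.

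Among the 5 membrane proteins, Laptm5, a lysosomal protein of blood-derived cells, measured 83.9, 84.4 and 84.7 CPM in the ZT3 controls, 106, 69.3 and 121 at ZT3 under shiftwork, 188, 227 and 140.4 in the ZT12 controls and 234, 155 and 159 at ZT12 under shiftwork. The 3 ZT3 controls were nearly equal, all ZT12 libraries exceeded all ZT3 libraries, and the control rise was 1.13 ± 0.24 (edgeR adjusted p = 0.0381). Lamp1 measured 656, 870.4 and 722 CPM in the ZT3 controls, 850.1, 857 and 695 at ZT3 under shiftwork, 877, 979 and 845 in the ZT12 controls and 983, 891 and 878 at ZT12 under shiftwork. Its control groups overlapped through ZT3 replicate 2, with a difference of 0.26 ± 0.15. Npc1, which moves cholesterol out of lysosomes, had a control difference of 0.49 ± 0.16 without overlap (edgeR adjusted p = 0.110). Lamp2, the other main membrane glycoprotein (-0.0045 ± 0.18), and the channel Mcoln1 (0.0042 ± 0.15) had control differences far smaller than their SE.

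Of the 9 cathepsins, 8 were higher at ZT12 in controls and 3 rose, with a median difference of 0.79. Ctsk (chr3:95499210-95509387), a collagen-degrading protease best known from osteoclasts, measured 19.7, 20.6 and 13.3 CPM in the ZT3 controls, 23.9, 19.1 and 29.9 at ZT3 under shiftwork, 41.5, 62.4 and 33.9 in the ZT12 controls and 44.4, 37.2 and 42.5 at ZT12 under shiftwork. The lowest ZT12 library stood above the highest ZT3 library, and the control rise was 1.36 ± 0.26 (edgeR adjusted p = 0.0263). Ctsz, a carboxypeptidase, measured 117, 162 and 97.0 CPM in the ZT3 controls, 180.3, 183 and 126 at ZT3 under shiftwork, 225, 269 and 252 in the ZT12 controls and 254, 211 and 192 at ZT12 under shiftwork. It rose by 0.99 ± 0.21 in controls (edgeR adjusted p = 0.0381), again with no ZT3 library reaching a ZT12 library. Ctsa (chr2:164832872-164841032), the carboxypeptidase that holds Neu1 and Glb1 in a stable complex, measured 140.3, 139 and 112 CPM in the ZT3 controls, 181, 164 and 128 at ZT3 under shiftwork, 207, 252 and 202 in the ZT12 controls and 258, 209 and 193 at ZT12 under shiftwork. The control rise was 0.75 ± 0.17 (edgeR adjusted p = 0.0427), and all 6 ZT12 libraries were above all 6 at ZT3.

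The abundant cathepsins missed the threshold. Ctsb measured 1366, 2120.4 and 1349 CPM in the ZT3 controls, 2207, 2262 and 1192 at ZT3 under shiftwork, 2635, 3183 and 2520.3 in the ZT12 controls and 3055, 2399 and 2515 at ZT12 under shiftwork, with no overlap between times and a control difference of 0.79 ± 0.28 (edgeR adjusted p = 0.133). Ctsl, the cysteine protease cathepsin L, measured 389, 673 and 346 CPM in the ZT3 controls, 603, 548 and 599 at ZT3 under shiftwork, 813, 885 and 786 in the ZT12 controls and 699, 722 and 774 at ZT12 under shiftwork. Its times did not overlap either, and the control difference was 0.82 ± 0.22 (edgeR adjusted p = 0.0682). Ctsd measured 1115, 2303 and 1674 CPM in the ZT3 controls, 1786, 1790.3 and 1045 at ZT3 under shiftwork, 2234, 2466 and 2263 in the ZT12 controls and 2084, 2095 and 2207 at ZT12 under shiftwork. ZT3 control replicate 2 of Ctsd was as high as ZT12 libraries, so the control groups overlapped (0.45 ± 0.28).

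Ctss, the cathepsin that trims the invariant chain of class II molecules in antigen-presenting cells, measured 77.6, 75.2 and 72.4 CPM in the ZT3 controls, 87.8, 50.8 and 141 at ZT3 under shiftwork, 197, 352 and 142 in the ZT12 controls and 314, 161 and 148 at ZT12 under shiftwork. All ZT12 libraries exceeded all ZT3 libraries, although ZT12 control replicate 3 stood only just above ZT3 shiftwork replicate 3. Its control difference of 1.62 ± 0.44 had a wide error (edgeR adjusted p = 0.0700). Ctsh, an aminopeptidase, measured 74.0, 53.5 and 78.6 CPM in the ZT3 controls, 68.5, 46.3 and 91.6 at ZT3 under shiftwork, 99.9, 99.1 and 78.9 in the ZT12 controls and 141, 103 and 99.9 at ZT12 under shiftwork, without overlap within either schedule (0.43 ± 0.25 in controls). Ctsc, which activates granule proteases of immune cells, was the cathepsin lower at ZT12 in controls (-0.56 ± 0.35). It measured 201, 324 and 555 CPM in the ZT3 controls, 255, 177 and 157 at ZT3 under shiftwork, 283, 269 and 179.8 in the ZT12 controls and 344, 248 and 263 at ZT12 under shiftwork, and the ZT3 controls alone spanned nearly the whole range.

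All 6 glycosidases were higher at ZT12 in controls and 3 rose. Neu1 (chr17:34931253-34937297), the lysosomal sialidase, measured 30.3, 28.1 and 25.2 CPM in the ZT3 controls, 31.6, 32.7 and 31.5 at ZT3 under shiftwork, 37.5, 41.3 and 43.8 in the ZT12 controls and 34.3, 34.4 and 35.0 at ZT12 under shiftwork. ZT12 controls were highest and ZT3 controls lowest, with both shiftwork groups between them and without overlap among the 4 groups. The control rise was 0.55 ± 0.095 (edgeR adjusted p = 0.0211). Hexa (chr9:59539667-59565105), the alpha subunit of beta-hexosaminidase, measured 93.2, 121 and 85.5 CPM in the ZT3 controls, 154, 133 and 133 at ZT3 under shiftwork, 206, 216 and 176 in the ZT12 controls and 249.6, 185 and 172 at ZT12 under shiftwork. It rose by 0.997 ± 0.18 in controls (edgeR adjusted p = 0.0224), and the 12 libraries separated by time.

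Glb1, the lysosomal beta-galactosidase, measured 48.7, 46.8 and 40.1 CPM in the ZT3 controls, 55.4, 47.5 and 47.6 at ZT3 under shiftwork, 69.0, 65.3 and 62.1 in the ZT12 controls and 65.7, 56.9 and 59.8 at ZT12 under shiftwork. The rise was 0.53 ± 0.11 (edgeR adjusted p = 0.0316), with the lowest ZT12 library just above the highest at ZT3. So all 3 genes of the complex of Ctsa, Neu1 and Glb1 rose. Gusb, beta-glucuronidase, ranged from 65.8 to 119 CPM in the 6 ZT3 libraries and from 131 to 199 CPM in the 6 at ZT12, with a control difference of 0.95 ± 0.23 (edgeR adjusted p = 0.0508). Gaa, which degrades glycogen, differed by 0.30 ± 0.13 in controls without overlap, and Gla by 0.30 ± 0.23 with overlap. Gla measured 18.3, 13.3 and 17.5 CPM in the ZT3 controls, 13.8, 13.2 and 11.8 at ZT3 under shiftwork, 18.2, 26.6 and 15.5 in the ZT12 controls and 20.6, 14.4 and 14.5 at ZT12 under shiftwork, highest in ZT12 control replicate 2.

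Each of the 3 lipid-handling genes was higher at ZT12. Lipa (chr19:34492316-34527474), lysosomal acid lipase, measured 78.4, 113 and 67.5 CPM in the ZT3 controls, 118, 94.3 and 109.9 at ZT3 under shiftwork, 199, 319 and 142 in the ZT12 controls and 208, 174 and 161 at ZT12 under shiftwork. It rose by 1.35 ± 0.29 in controls (edgeR adjusted p = 0.0359); all ZT12 libraries were above all ZT3 libraries, with ZT12 control replicate 2 far above the rest. Npc2, which binds cholesterol and hands it to NPC1, measured 374, 782 and 435 CPM in the ZT3 controls, 702, 650.1 and 419 at ZT3 under shiftwork, 955, 1039.6 and 1062 in the ZT12 controls and 818, 857 and 854 at ZT12 under shiftwork. Psap measured 1553, 1572 and 1315 CPM in the ZT3 controls, 1698, 1588 and 1273 at ZT3 under shiftwork, 2081, 2612 and 2046 in the ZT12 controls and 2267, 1893 and 1987 at ZT12 under shiftwork. For both, the 2 times did not overlap, and the control differences were 0.94 ± 0.28 and 0.60 ± 0.18 (edgeR adjusted p = 0.0838 and 0.0843).

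None of the 5 proton pump subunits and none of the 5 autophagy genes passed the test in controls (edgeR, 1 and 3 at an unadjusted p under 0.05; DESeq2 called Atp6v0d2, Sqstm1 and Gabarapl1). The 2 paralogs of the pump's d subunit gave unlike values. Atp6v0d2 (chr4:19876838-19922566) measured 5.89, 7.30 and 1.66 CPM in the ZT3 controls, 5.84, 2.96 and 11.1 at ZT3 under shiftwork, 20.5, 78.3 and 12.6 in the ZT12 controls and 28.7, 18.7 and 15.6 at ZT12 under shiftwork. Its 2 times did not overlap, and the control difference of 2.90 ± 0.80 included the far highest library, ZT12 control replicate 2 (edgeR adjusted p = 0.0703). Atp6v0d1, the widely expressed form, measured 126, 155 and 137 CPM in the ZT3 controls, 135, 142 and 86.5 at ZT3 under shiftwork, 146, 138 and 147 in the ZT12 controls and 143, 143 and 155 at ZT12 under shiftwork, with overlapping controls and a difference of 0.042 ± 0.17. The catalytic-head subunits Atp6v1b2 (0.48 ± 0.23), Atp6v1a (0.10 ± 0.18) and the regulatory Atp6v1h (-0.17 ± 0.20) overlapped in controls.

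Sqstm1, the cargo receptor p62, measured 357, 411 and 366 CPM in the ZT3 controls, 437, 419 and 302 at ZT3 under shiftwork, 521, 568 and 591 in the ZT12 controls and 439, 539 and 513 at ZT12 under shiftwork. The 2 times did not overlap (control difference 0.57 ± 0.16, edgeR adjusted p = 0.0730). Map1lc3b, the LC3 protein of autophagosome membranes, measured 74.2, 75.5 and 56.8 CPM in the ZT3 controls, 109, 106 and 61.6 at ZT3 under shiftwork, 99.6, 95.8 and 115 in the ZT12 controls and 82.5, 95.7 and 88.9 at ZT12 under shiftwork. Its relative Gabarapl1 measured 151, 167 and 133 CPM in the ZT3 controls, 219, 193 and 172 at ZT3 under shiftwork, 207, 198 and 260.1 in the ZT12 controls and 193, 226 and 196 at ZT12 under shiftwork. In both genes the ZT3 controls were below the ZT12 controls (0.59 ± 0.21 and 0.56 ± 0.15), while the shiftwork groups overlapped. The kinase Ulk1 (0.17 ± 0.15) and Becn1 (0.075 ± 0.080), both of which start autophagy, had the smallest differences of the role. Becn1 measured 113, 108 and 107 CPM in the ZT3 controls, 114, 117 and 104 at ZT3 under shiftwork, 116, 111 and 119 in the ZT12 controls and 104, 111 and 107 at ZT12 under shiftwork, with overlap between the schedules at ZT3 and between the times in controls.

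**Figure D2:**
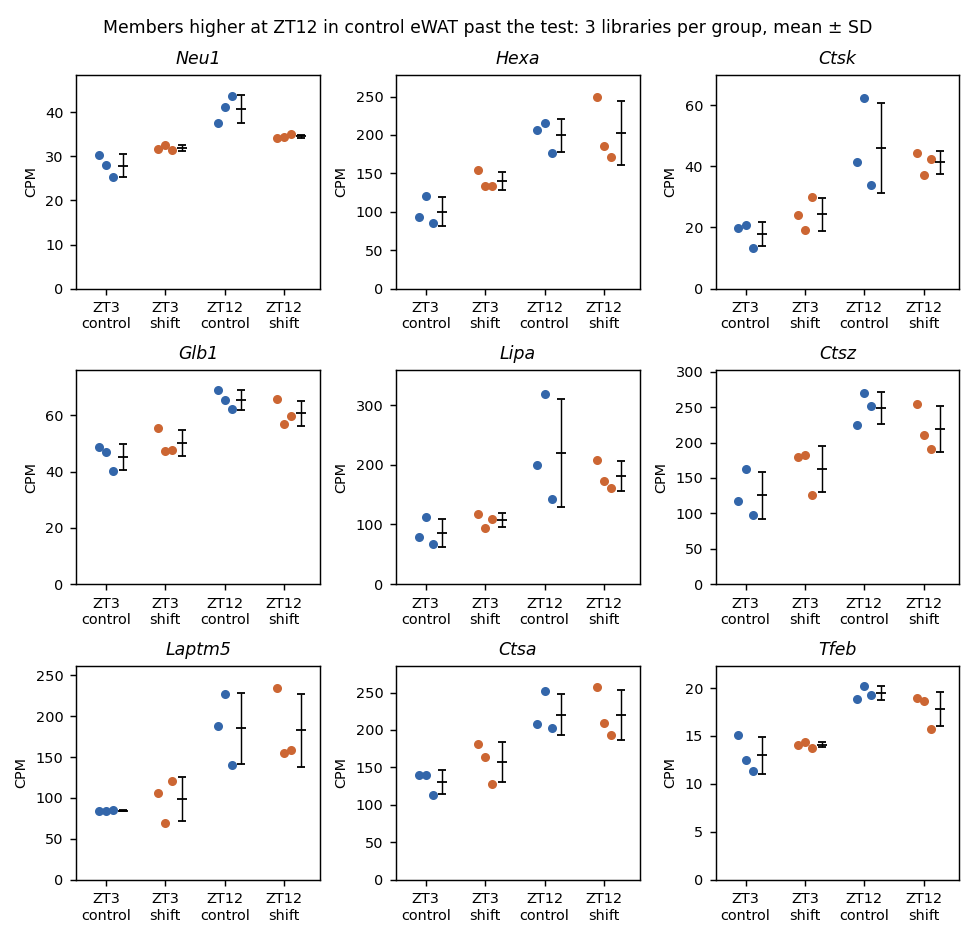
CPM in every eWAT library for the 9 genes that rose at ZT12 in controls (blue, control; orange, shiftwork; 3 libraries per group, with mean and SD in black; axes start at 0). For each of the 9 the 6 ZT12 points lie above the 6 ZT3 points.

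The number that passed the test in controls depended on single libraries. It was 9 or 7 without ZT3 control replicate 2 or ZT12 shiftwork replicate 1 and 20 without ZT3 shiftwork replicate 3, but 5, 3, 2, 2 and 1 without ZT3 shiftwork replicate 2, ZT3 shiftwork replicate 1, ZT3 control replicate 1, ZT12 control replicate 3 and ZT12 shiftwork replicate 3. It was 0 without ZT3 control replicate 3, ZT12 control replicate 1, ZT12 control replicate 2 or ZT12 shiftwork replicate 2 (edgeR, 18 to 20 members at an unadjusted p under 0.05). The share of all genes called moved as well. In the fits with 9, 7 and 20 members it was 7.72%, 2.55% and 17.8%. In those with 5, 3, 2, 2 and 1 members it was 2.69%, 1.76%, 1.12%, 0.772% and 0.988%. In those with 0 members it was 0.0193%, 0.00638%, 0.0255% and 0.92%, in the order named. The 9 genes that rose with all libraries kept their direction in each of these 12 fits. The 9 called without ZT3 control replicate 2 held 6 of them, with Ctsl, Gusb and Npc2 in place of Tfeb, Laptm5 and Ctsa. Without the 3 libraries that held transcripts of the male tract, 29 of the 36 were higher and 7 lower, with a median of 0.39. The 9 genes that rose with all libraries in the fit kept their direction. This fit leaves 1 ZT3 control library, so only its effect sizes are given. The part of the male tract libraries in the result was not tested further.

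Many members also separated the libraries by time. In controls the ZT12 and ZT3 groups did not overlap for 22 of the 36 genes, all higher at ZT12, where 19.3% of all genes were higher and 13.6% lower without overlap. For 17 of the 36, all 6 ZT12 libraries exceeded all 6 ZT3 libraries, against 3.61% of all genes, and 0 were lower in all 6, against 1.07%. The 17 were Tfeb, Laptm5, Ctsa, Ctsb, Ctsk, Ctsl, Ctss, Ctsz, Glb1, Hexa, Neu1, Gusb, Npc2, Lipa, Psap, Atp6v0d2 and Sqstm1. Other scalings gave 14 and 16. Leaving out libraries can only keep or raise such a count: it was 17 to 20 without any 1 library and 19, with 9.62% of all genes, without the 3 male tract libraries.

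Under shiftwork most members were again higher at ZT12, but no gene passed the test for time. Of the 36, 34 were higher at ZT12 and 2 lower, with a median of 0.35 against -0.030 over all genes. edgeR called 0 members and 0% of all genes in either direction (13 members and 2461 genes at an unadjusted p under 0.05), and DESeq2 called 1 member, Laptm5, among 287 genes. The smallest p-values belonged to Laptm5 (0.89 ± 0.24), Ctsk (0.77 ± 0.25), Hexa (0.53 ± 0.18), Ctsh (0.74 ± 0.25), Ctsa (0.48 ± 0.17) and Lipa (0.75 ± 0.28), and the adjusted p of Laptm5 was 0.280. The groups did not overlap for 25 members, all higher at ZT12, where 9.05% of all genes were higher and 7.59% lower. For 19 members, against 4.68% of all genes, they did not overlap in either schedule. The control and the shiftwork groups share no library.

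**Figure D3:**
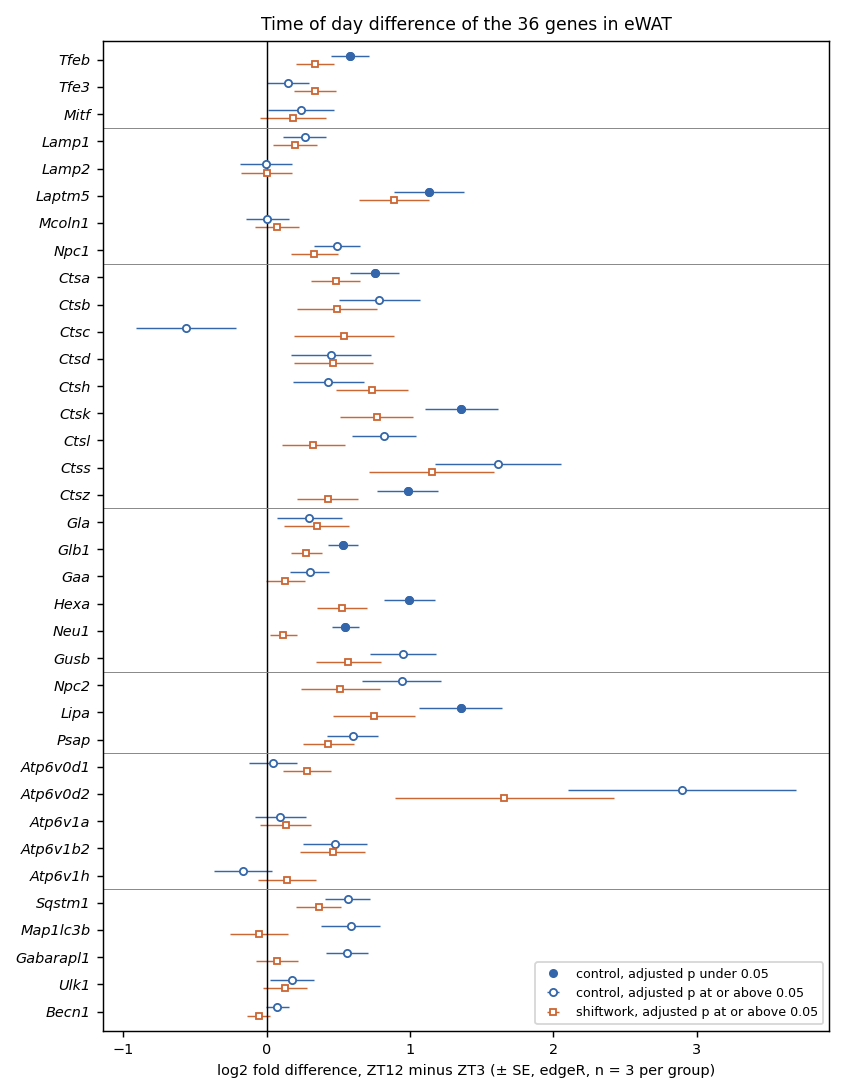
Log2 difference between ZT12 and ZT3 in eWAT with its SE for the 36 genes, in controls (blue; filled where the adjusted p is under 0.05) and under shiftwork (orange squares), with lines between roles. Most points lie right of 0 in both schedules; Ctsc lies left of 0 in controls (-0.56) and right of 0 under shiftwork (0.54).

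Macrophage transcripts moved with time as well. The sum of 14 macrophage markers, none of them among the 36 genes, was 938, 1136 and 972 CPM in the ZT3 controls, 1443, 886 and 1392 CPM at ZT3 under shiftwork, 2499, 2969 and 1639 CPM in the ZT12 controls and 3713, 1999 and 1865 CPM at ZT12 under shiftwork. All 6 ZT12 sums were above all 6 ZT3 sums. In controls all 14 markers were higher at ZT12 and 4 rose (edgeR), with a median of 1.27. The 8 adipocyte markers had a median of 0.43 in controls and 0.0083 under shiftwork, and none passed the test (1 and 0 at an unadjusted p under 0.05). How much of the members' time difference goes with macrophage content was not tested.

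Within groups, Ctss and Laptm5 followed the macrophage level. A slope was fitted on the mean log2 level of the 14 markers with the 4 groups as terms, so that it used only differences between libraries of the same group. edgeR called 2 members above 0, against 0.238% of all genes, and 0 below 0, against 0% of all genes. These were Ctss, with 1.36 ± 0.17 log2 units per log2 unit of marker level (adjusted p = 0.0355), and Laptm5, with 0.77 ± 0.099 (adjusted p = 0.0356). Atp6v0d2 (1.90 ± 0.61), Ctsh (0.63 ± 0.19), Lipa (0.67 ± 0.23) and Mitf (0.53 ± 0.19) had the next smallest p-values and did not pass (edgeR adjusted p = 0.378, 0.340, 0.429 and 0.446).

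Slopes differed among the 17 members that separated all libraries by time. Some were smaller than their SE: Tfeb had 0.055 ± 0.14, Ctsb 0.080 ± 0.31, Ctsl 0.10 ± 0.25, Ctsz 0.077 ± 0.23 and Neu1 -0.078 ± 0.10. Others were larger without passing the test, such as Ctsk with 0.56 ± 0.22 and Hexa with 0.38 ± 0.15, which both rose in controls. The SE of Ctsb, Ctsl and Ctsz are too wide to tell a slope of 0 from one like that of Hexa. All 5 autophagy genes had slopes below 0, from -0.35 ± 0.20 for Map1lc3b to -0.11 ± 0.081 for Becn1, none past the test (edgeR; 0 at an unadjusted p under 0.05). The calls for Ctss and Laptm5 were lost when any library other than ZT3 shiftwork replicate 3 was left out, with adjusted p of 0.0544 to 0.195 for Ctss, while its slope stayed between 1.25 and 1.51 and that of Laptm5 between 0.69 and 0.86.

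**Figure D4:**
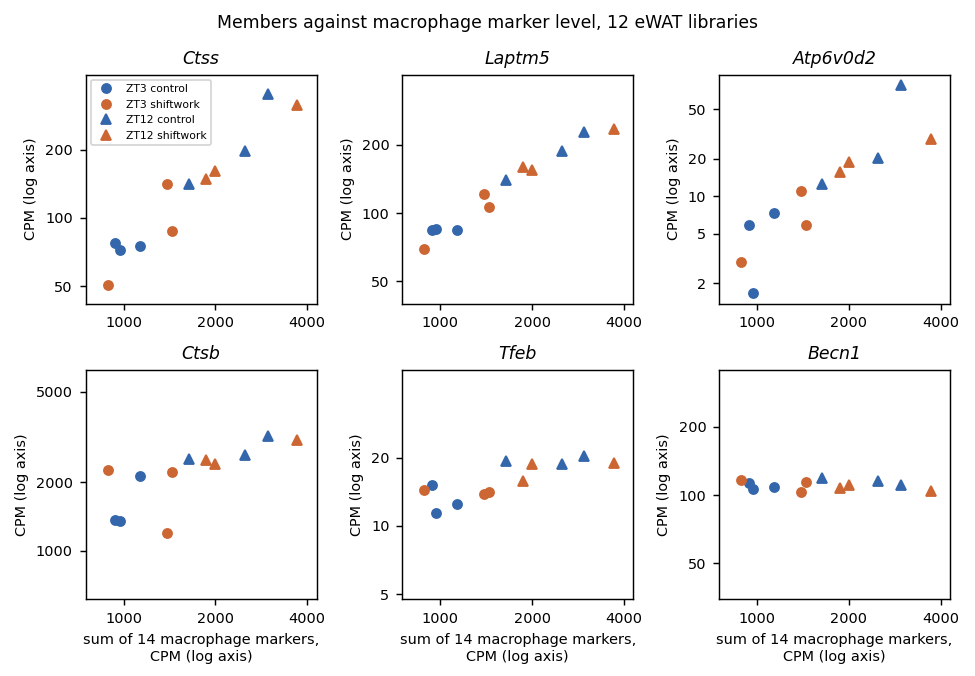
CPM of 6 members against the summed CPM of 14 macrophage markers in the 12 eWAT libraries, both axes logarithmic (circles, ZT3; triangles, ZT12; blue, control; orange, shiftwork). Ctss, Laptm5 and Atp6v0d2 climb with the marker sum across the panel, and Becn1 stays between 104 and 119 CPM. All members shown except Becn1, so Ctsb and Tfeb too, have every ZT12 point above every ZT3 point. The marker sums also separate the times, so a climb across the panel mixes time with marker level.

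No member passed the test for schedule in eWAT. At ZT3, 25 of the 36 were higher under shiftwork and 11 lower, with a median of 0.078 against 0.057 over all genes. edgeR called 0 members and 0% of all genes in either direction (3 members and 2847 genes at an unadjusted p under 0.05), and DESeq2 0 members among 629 genes. Hexa, with all shiftwork libraries above all controls, had the smallest p (0.49 ± 0.18, edgeR adjusted p = 0.218). Gabarapl1 (0.37 ± 0.15), Ctsc (-0.87 ± 0.35), Map1lc3b (0.42 ± 0.21), Neu1 (0.19 ± 0.095) and Ctsz (0.38 ± 0.21) followed. The groups did not overlap for 3 members, Hexa, Neu1 and Gabarapl1, all higher under shiftwork, where 7.64% of all genes were higher and 4.33% lower. The count higher was 5 when control replicate 1 was left out, 6 without control replicate 2, 6 without shiftwork replicate 2 and 13 without shiftwork replicate 3, with 12.8% to 19.4% of all genes. The count lower was 3 without control replicate 1 (10.4% of all genes) and 1 without control replicate 2 (13%). Without shiftwork replicate 1, 3 members were higher (10.5%) and 4 lower (6.62%). Without ZT3 control replicate 2, edgeR called 1 member, Ctsl, among 403 genes. As 2 of the 3 ZT3 controls and 1 of the 3 shiftwork libraries held male tract transcripts, tissue content and schedule cannot be told apart at this time.

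At ZT12, 6 members were higher under shiftwork and 30 lower, with a median of -0.10 against -0.0043 over all genes. This balance rested on ZT12 control replicate 2, without which 20 were higher and 16 lower. edgeR called 0 members and 0% of all genes in either direction (1 member and 355 genes at an unadjusted p under 0.05), and DESeq2 0 members among 7 genes. Neu1 was the member with an unadjusted p under 0.05 (-0.24 ± 0.095, edgeR adjusted p = 1). Ctsd, Ctsl, Neu1, Npc2, Map1lc3b and Becn1 were lower under shiftwork without overlap, where 6.55% of all genes were, and Ctsh was higher, where 5.91% were. The count of 6 became 2 with library totals as the scaling (3.94% of all genes) and 13 without ZT12 shiftwork replicate 1 (10.6%), and 4 members were higher without ZT12 control replicate 2 (10.9%). The sizes were small: -0.10 ± 0.080 for Becn1, -0.18 ± 0.22 for Ctsl and -0.27 ± 0.28 for Npc2.

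The test of whether schedule altered the time difference called 0 members and 0% of all genes in either direction (edgeR; 3 members and 1535 genes at an unadjusted p under 0.05; DESeq2 0 members among 189 genes). The value (shiftwork minus control) was below 0 for 26 members and above 0 for 10, with a median of -0.19 against -0.069 over all genes. Neu1 had the smallest p (-0.44 ± 0.13, edgeR adjusted p = 0.443): its difference between times was 0.55 ± 0.095 in controls and 0.11 ± 0.095 under shiftwork. Gabarapl1 (-0.49 ± 0.21), Map1lc3b (-0.64 ± 0.29), Hexa (-0.47 ± 0.25) and Ctsz (-0.56 ± 0.30) had values below 0 and Ctsc (1.10 ± 0.49) a value above 0.

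Of the other genes of these pathways, 104 were listed and all were tested in eWAT. Over all genes tested, 48.7% were higher at ZT12 in controls and 2.93% rose, with a median of -0.012. Among 40 further lysosomal genes 39 were higher at ZT12 in controls and 5 rose, with a median of 0.35. Of 13 further proton pump subunits 8 were higher and 1 rose, with a median of 0.032, near that of all genes. Of 33 further autophagy genes 23 were higher and 3 rose, with a median of 0.14. Of 18 genes of mTORC1 signalling at the lysosome 9 were higher and 0 rose (edgeR, 2 at an unadjusted p under 0.05). Their median of 0.024 was also near that of all genes. Among the listed genes that rose were Uvrag, a partner of Beclin 1 (0.82 ± 0.12, edgeR adjusted p = 0.0168), Tcirg1, the a3 subunit of the pump (1.03 ± 0.19), Naglu, which degrades heparan sulfate (0.72 ± 0.13), Optn, an autophagy receptor (1.04 ± 0.21), and Man2b1, a mannosidase (0.62 ± 0.13). All 6 ZT12 libraries exceeded all 6 ZT3 libraries for 7 of the 40 lysosomal genes, against 3.61% of all genes. The same held for 1 of the 13 pump subunits (Tcirg1) and 1 of the 33 autophagy genes (Uvrag). It also held for 2 of the 18 mTORC1 genes (Flcn and Fnip2). In no other comparison between groups did edgeR or, in iWAT, limma call any of the 104. The 40 lysosomal genes then had 7 at an unadjusted p under 0.05 for time under shiftwork, 10 for schedule at ZT3, 0 at ZT12 and 2 in iWAT. Over all genes the counts were 2461, 2847 and 355 of 15141 in eWAT and 1094 of 16387 in iWAT. The 7 and the 2 were all higher, and of the 10 for schedule at ZT3 9 were higher and 1 lower.

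In iWAT at ZT3, most members were higher under shiftwork, but none passed the test. Of the 36, 30 were higher and 6 lower, with a median of 0.35 against 0.017 over all genes on the log2(value + 1) scale. limma called 0 members and 0% of all genes in either direction (5 members and 1094 genes at an unadjusted p under 0.05), and edgeR on the recovered reads also called 0 members and 0 genes. With log2(RPKM + 0.1) as an alternative scale, 26 of the 36 were higher and 10 lower. The groups did not overlap for 9 members, all higher under shiftwork, where 7.34% of all genes were higher and 5.59% lower. These were Ctsd, Ctsl, Glb1, Neu1, Npc2, Atp6v0d1, Atp6v1a, Atp6v1b2 and Map1lc3b. The count was 20 without control replicate 3, with 20.2% of all genes, and 19 without shiftwork replicate 2, with 14.5%.

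Ctsl had the smallest p, with 366, 393 and 538 CPM in the controls and 907, 749.9 and 777 CPM under shiftwork. All shiftwork libraries were well above all controls (0.93 ± 0.22, limma adjusted p = 0.688). The pump subunit Atp6v1b2 measured 145, 163 and 188 CPM in the controls and 251, 211 and 253 CPM under shiftwork (0.54 ± 0.17). Npc2 measured 431, 509 and 661 CPM in the controls and 824, 724 and 784 CPM under shiftwork (0.57 ± 0.22). Neither overlapped. Ctsd measured 599.6, 765 and 1039.7 CPM in the controls and 1481, 1098 and 1134 CPM under shiftwork (0.66 ± 0.27), with control replicate 3 close below the shiftwork libraries. Lipa measured 110.4, 103 and 162 CPM in the controls and 213, 142 and 249 CPM under shiftwork (0.69 ± 0.28), and here control replicate 3 overlapped. Atp6v0d2 measured 4.10, 2.23 and 24.5 CPM in the controls and 30.8, 20.7 and 20.5 CPM under shiftwork (1.96 ± 0.84): control replicates 1 and 2 were low and control replicate 3 was as high as the shiftwork libraries.

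Laptm5 (-0.57 ± 0.61) and Ctss (-0.088 ± 0.56) were among the 6 lower members. Laptm5 measured 338, 603 and 152 CPM in the controls and 228, 116 and 352 CPM under shiftwork, highest in control replicate 2, the library with the highest B cell sum. Tfeb measured 36.04, 54.7 and 26.9 CPM in the controls and 59.8, 26.6 and 29.5 CPM under shiftwork, with the 2 highest values in control replicate 2 and shiftwork replicate 1 and a difference of -0.048 ± 0.39. Macrophage markers summed to 1925, 2589 and 2000 CPM in the controls and 2772, 1324 and 4305 CPM under shiftwork, with overlap. Without control replicates 1 and 2 and shiftwork replicate 1, the libraries with B cell or muscle transcripts, the median of the 36 was 0.092, Ctsl differed by 0.53 and Atp6v0d2 by -0.22; these fits rest on 1 control library, taken to vary like the others. Without control replicate 3, limma called 1 member, Atp6v0d2, among 389 genes.

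In the authors' deposited table for iWAT, 3 of the 36 genes were marked as up: Ctsl with a log2 fold change of 0.90 and an adjusted p of 0.0191, and Ctsd (0.61) and Lipa (0.67) with adjusted p of 0.510 and 0.535. The sign of that table is shiftwork against control, as seen from the mean RPKM of Ctsl, 69.0 in controls and 119 under shiftwork.

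**Figure D5:**
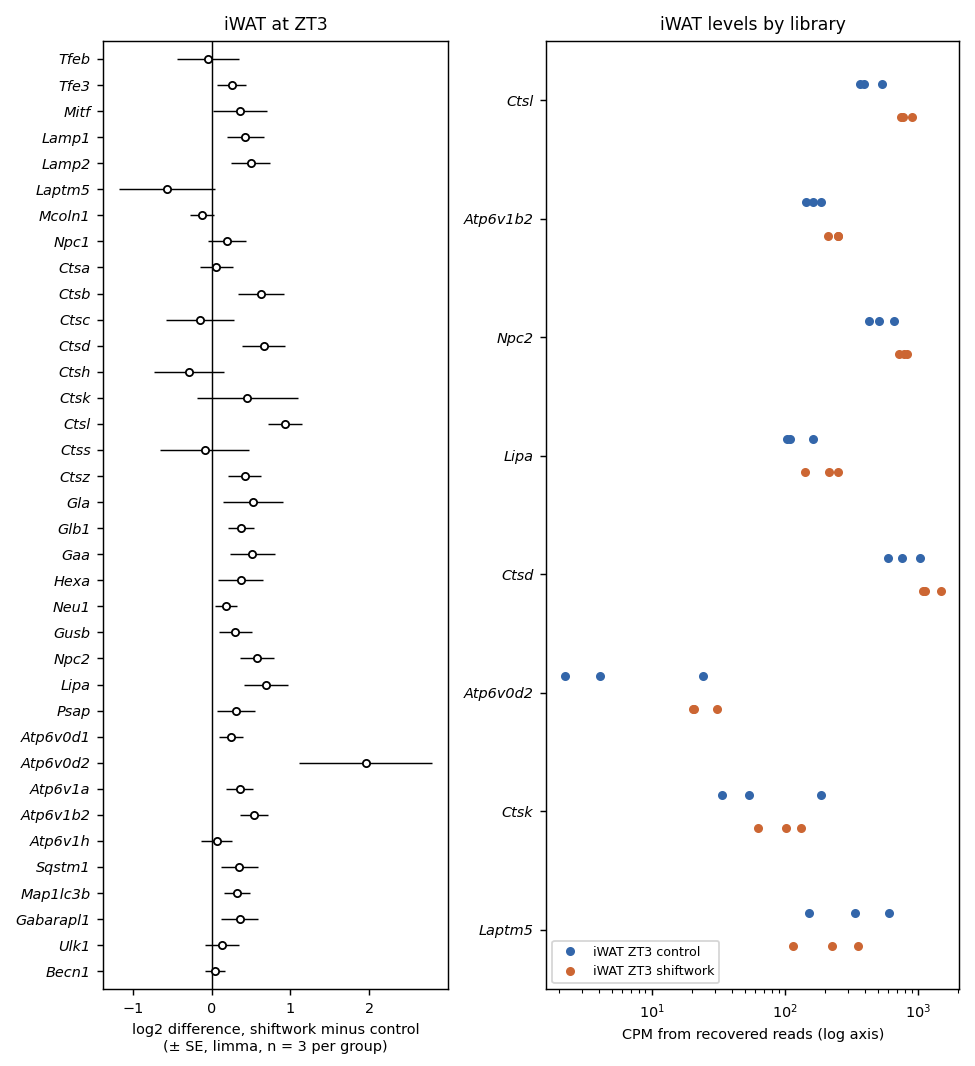
Left, log2 difference of the 36 genes between shiftwork and control iWAT at ZT3 with its SE (limma, 3 libraries per group); right, CPM from recovered reads in every library for 8 members on a logarithmic axis (blue, control; orange, shiftwork). Ctsl, Atp6v1b2, Npc2 and Ctsd separate the groups, whereas Lipa, Atp6v0d2, Ctsk and Laptm5 overlap.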

How the data were processed

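Libraries of mRNA were read with 51 cycles, per the labels' protocols. Tools listed in the submitters' processing notes are STAR, HTSeq, edgeR, limma and DESeq2, and builds mm10 and GRCm38, with neither version nor role; strand handling of the counting is not given in the sources used here. For eWAT the authors deposited whole-number read counts and log2 FPKM values. For iWAT they deposited RPKM and a table named as counts whose values are a normalized signal: within a library all values are integer multiples of the same smallest unit, which gave back whole reads (100% of 144100 values above 0, tolerance 1e-06). The authors' comparison of iWAT gives log2 fold change and p-value, per the file headers.

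eWAT counts were tested with edgeR 4.0.16 in R 4.3.3 (TMM, filterByExpr with minimum count 10 and total 15, robust quasi-likelihood, 12 libraries, 4 groups), with adjustment by Benjamini-Hochberg over all genes and calls at an adjusted p under 0.05. SE is the log2 difference over the square root of F. For iWAT, limma 3.58.1 (trend, robust) was used on log2(value + 1) for genes with a value of at least 10 in 3 libraries. Gene positions are those of the authors' eWAT table, in the build the notes name. Levels per length are the authors' FPKM and RPKM. Scripts were tested on simulated data: for control eWAT, 25% of 2-fold and 55% of 4-fold changes were recovered over 15141 genes; for iWAT, 2% and 48% over 16387. The members, pathway lists and markers were chosen with earlier results of these data known. Values per library are given for genes called in any comparison, the 6 smallest p-values of each comparison, the MiT/TFE factors, both d subunits and the most abundant members of each role. Alternatives were DESeq2 1.42.0, RLE scaling, no filter, only the groups compared, a replicate block, leaving out libraries and, for iWAT, other pseudocounts and RPKM. Of the 9 other pathway genes that rose, not all are named here. In their deviations from the group means, same-numbered libraries of the 2 ZT12 groups correlated (0.310, 0.132 and 0.203), so the number was also a block in a fit of these 2 groups; in no other comparison of 2 groups were all 3 correlations over 0.1. No pair of libraries was a copy. Tables for eWAT and iWAT were compared only as differences within each.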

Additional observations from a re-analysis of the deposited data

How the results depend on the processing

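The count of 9 members that rose in control eWAT, among 559 genes called in all, became 18 with DESeq2 (all 9 among them, 2168 genes in all). It was 5 with only the 2 groups fitted (4 of the 9 and Ctss, 753 genes in all). RLE scaling gave 7 (470 genes) and no filter 6 (320 genes). With single libraries left out it was 0 to 20, with 1 to 2744 genes in all. Without the 3 male tract libraries, which leaves 1 ZT3 control library, the median was 0.389. The causes were not tested. Under shiftwork DESeq2 called 1 member. Leaving out single libraries gave 0 to 1 members for schedule at ZT3 and 0 to 1 in iWAT. In iWAT without the 3 libraries with lymphocyte or muscle transcripts, an alternative chosen after seeing the data, the median was 0.0916 and Atp6v0d2 reversed to -0.221. Atp6v0d2 also reversed for schedule at ZT12, to 0.345 without ZT12 control replicate 2 (range over single libraries left out, -1.23 to 0.345). The slope on macrophage level called 2 members among 36 genes in all, and 13 among 739 without group terms. It called 0 members among 9 genes without the filter and 3 among 421 with DESeq2. With single libraries left out it called 0 to 2 members among 0 to 67 genes. With the replicate number as a block, 7 members were called in control eWAT, 6 of them among the 9, with 1.97% of all genes. In every other comparison 0 members were called. Labels do not say that numbers pair libraries; for schedule at ZT12, where same-numbered libraries correlated, a fit of these 2 groups with the block, added after seeing the data, also called 0 members (edgeR; 2 at an unadjusted p under 0.05; median -0.089). Counts of members higher at ZT12 without overlap were 21 and 23 in controls and 24 and 23 under shiftwork with other scalings; leaving out single libraries, which can only keep or raise them, gave 22 to 26 and 25 to 29. With 3 libraries per group and most 2-fold changes missed in simulated data, differences of this size can go uncalled.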
